A study of Mus musculus with 8 samples.

Results

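The 37 genes described here encode the enzymes that build purine and pyrimidine nucleotides, recover them from free bases and nucleosides, and supply them with one-carbon units. They were chosen by name and fall into steps: 2 PRPP synthetases, 6 enzymes of the purine ring, 4 of the AMP and GMP branches, 5 of the pyrimidine ring and of CTP, 5 of deoxynucleotide supply, 2 nucleoside diphosphate kinases, 6 salvage enzymes, 5 folate enzymes and 2 enzymes of the methionine cycle. All 37 were found among the 54532 gene rows of the count table, and 34 had enough counts to be tested.

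Intestinal epithelial cells were taken from WT and Rank-knockout mice at day 5 of lactation, with 4 libraries per genotype. Rank (Tnfrsf11a) codes for a receptor that activates NF-κB, and the methods of the study describe its removal by floxed alleles and a Cre recombinase that the Villin promoter drives, so that cells outside the intestinal epithelium keep the gene. Per the same methods the lines were kept on C57BL/6J, and females of both genotypes were littermates mated to WT males. Strain and lactation were therefore shared by the groups, whereas the age of the animals, the gut segment and the Cre and flox status of the WT mice are not given in the labels. The libraries carry tags from the 3′ ends of polyadenylated RNA, and each value below is a count of such tags or tags per 1000000 counted, after TMM scaling of the library sizes (CPM). The labels number the samples of each genotype but do not state one animal per library, so p values measure the spread between these samples.

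Nucleotides are made by a pair of de novo routes. The purine ring is built atom by atom on the ribose phosphate donor PRPP until inosine monophosphate (IMP) is reached, whereas the pyrimidine ring is made first and joined to PRPP afterwards. Serine, through folate carriers in the mitochondria and the cytosol, gives one-carbon units for the purine ring and for thymidylate, and salvage enzymes return free bases and nucleosides to the pool. In the intestine the crypts hold dividing cells, which copy their DNA and make ribosomes, and the villi carry absorptive cells that no longer divide.

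Most of the enzymes were higher in Rank-knockout than in WT epithelial cells. Of the 34 tested, 24 rose and 0 fell at an edgeR adjusted p below 0.05, where 15.8% of all 9855 tested genes rose and 14.6% fell. At an unadjusted p below 0.05 the same test had 28 members higher and 1 lower, and DESeq2 and limma-voom each had 0 lower. The log2 fold change was above 0 for 31 members and below 0 for 3, with a median of 0.91 beside a median of 0.02 over all genes tested. It ran from -0.40 for Adss to 1.38 for Rrm2, and 11 of the called members were at least 2-fold higher. Every Rank-knockout library lay above every WT library for 17 of the 34, and all lay below for 0, where such a separation upward held for 14.4% of all tested genes and downward for 14.3%.

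The rise was not carried by DNA precursors alone. Without the 5 deoxynucleotide enzymes and the thymidine kinase Tk1, 18 of 28 tested members rose, with a median log2 fold change of 0.89. The summed level of the 37 genes was 1174, 1357, 1194 and 1037 CPM in WT replicates 1 to 4 and 2273, 1766, 2106 and 1522 CPM in Rank-knockout replicates 1 to 4. The groups did not overlap, and the Rank-knockout mean of 1917 ± 337 CPM was 1.61 times the WT mean of 1191 ± 131 CPM (SD, n = 4 for each). Within Rank-knockout, replicate 1 was the highest of its genotype for 24 of the 34 members and replicate 4 the lowest for 28. Within WT, replicate 4 was the lowest for 19 and replicate 2 the highest for 17.

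**Figure D1:**
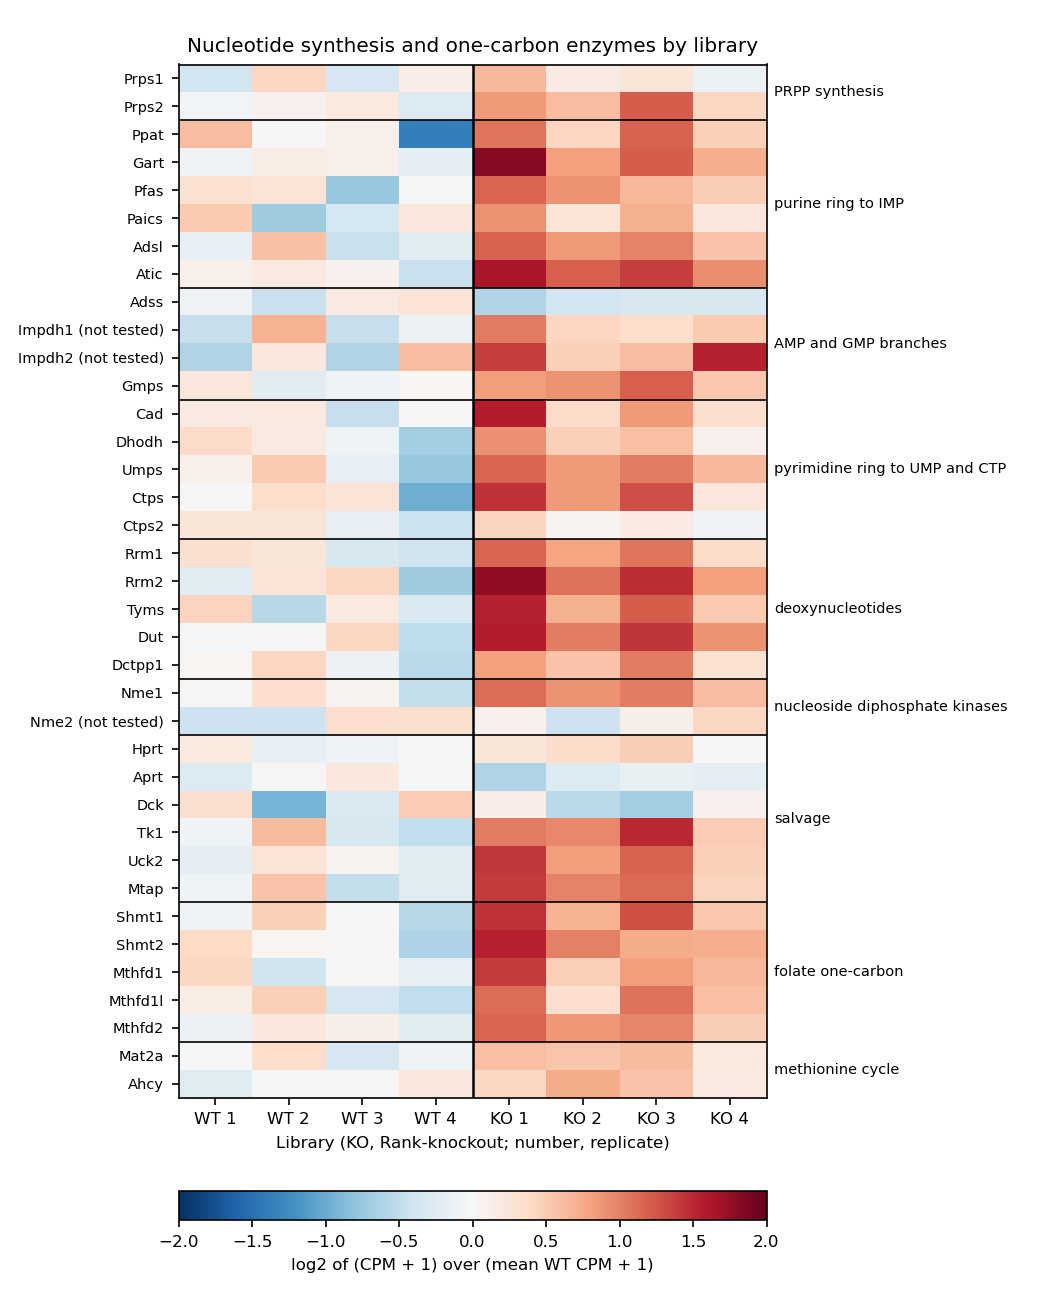
Heat map of the 37 enzymes (rows, grouped by step) in the 8 libraries (columns), with colour giving the log2 of CPM plus 1 over the mean WT CPM plus 1. The Rank-knockout columns are red for most rows, most strongly in replicate 1, whereas Adss and Aprt are blue there and Dck and Nme2 show no common colour.

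Which members were called depended on single libraries more than on the method. With the other scalings, filters and tools, 22 to 29 members were higher. Without WT replicate 4 the count of higher members was 13, and without Rank-knockout replicate 1 it was 15. Calls were fewer over all tested genes too, with 10% and 10.8% higher in these fits, against 15.8% with all libraries. The 11 members that lost the call without WT replicate 4 were Prps2, Pfas, Adsl, Cad, Umps, Ctps, Dctpp1, Tk1, Mtap, Mthfd1l and Mat2a, and all calls lost when another library was left out were among these. Without that library their adjusted p was between 0.0529 and 0.0985. The count of higher members was 18 without WT replicate 1, 16 without WT replicate 3, 17 without Rank-knockout replicate 3 and 22 without Rank-knockout replicate 2. Between 11.4% and 12.8% of all tested genes rose in these fits. It was 24 without WT replicate 2 and 27 without Rank-knockout replicate 4, where 15.8% and 17.5% of all tested genes rose. All 12 of Gart, Atic, Rrm1, Rrm2, Tyms, Dut, Nme1, Uck2, Shmt1, Shmt2, Mthfd1 and Mthfd2 were called in each of the 17 alternatives, and the other 12 called members lost the call in at least 1. With raw totals as library sizes the median over all genes moved by 0.20 and that of the members became 1.11. Then 29 members were higher, beside 26% of all tested genes. Total counts ran from 1530781 to 4335653 per library, and 3 of the 4 WT libraries were shallower than every Rank-knockout library. With all libraries thinned to the shallowest, 22 members were higher and 1, Adss, was lower.

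**Figure D2:**
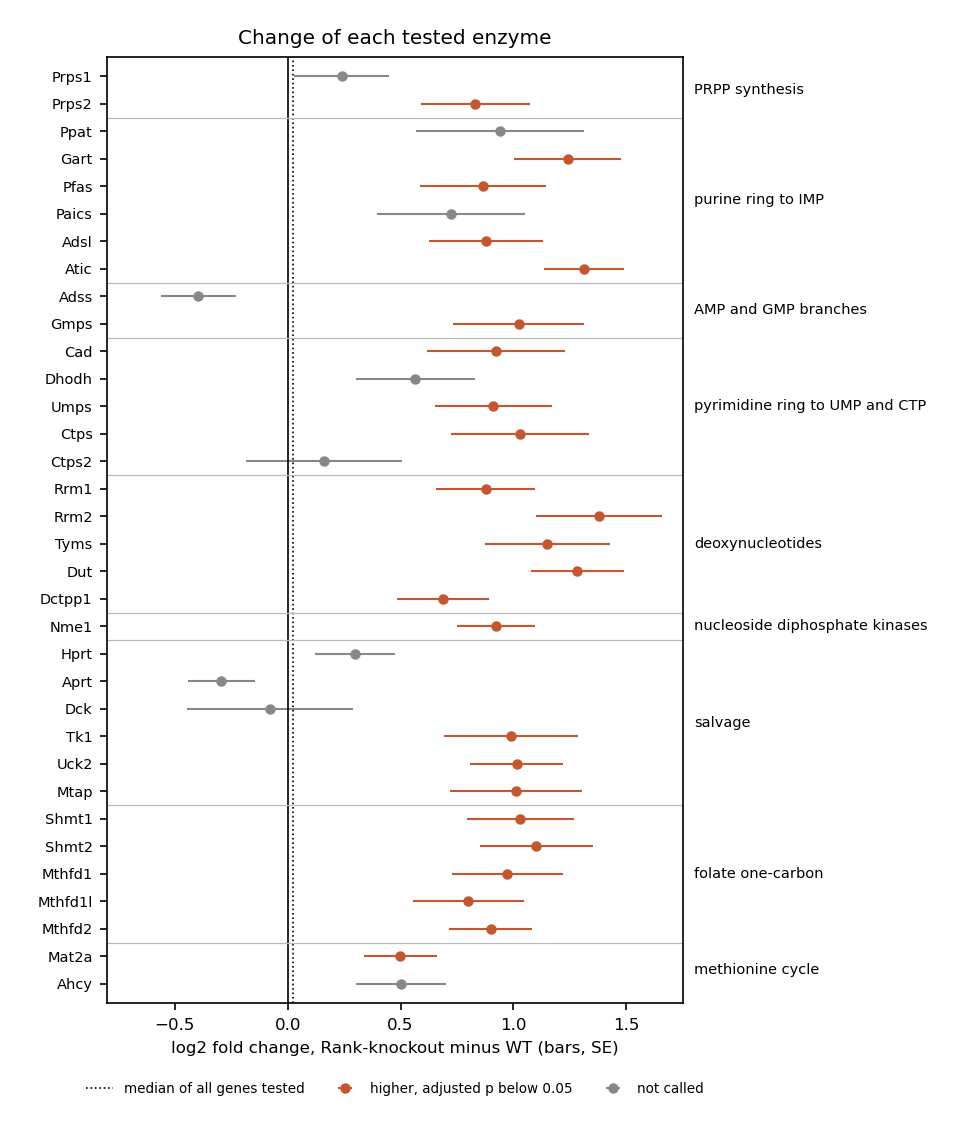
Log2 fold change of the 34 tested enzymes, Rank-knockout minus WT, with the SE as bars, grouped by step. Red points passed an adjusted p of 0.05 and grey points did not, and the dotted line is the median of all 9855 genes, 0.02. Deoxynucleotide and folate enzymes are red throughout, while Adss, Aprt and Dck lie below 0.

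The stretches of DNA just upstream of the start sites are shown for 6 members that rose, taken from several steps, and for Adss and Aprt, which did not pass the test. These 8 were chosen after their values were seen. Promoters were read from RefSeq (GRCm38.p6) for 35 of the 37 members, as the 250 bases before each start. Each stretch below holds 120 bases free of annotated exons. Capitals mark 3 motifs on either strand. They are the E-box with the letters CACGTG, the NF-Y motif with the letters CCAAT, and the GC box of Sp1 family proteins with the letters GGGCGG, and the GC boxes of Adss overlap each other in part.
Tyms: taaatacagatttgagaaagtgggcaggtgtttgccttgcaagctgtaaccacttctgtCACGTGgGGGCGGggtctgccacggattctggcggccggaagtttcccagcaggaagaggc
Nme1: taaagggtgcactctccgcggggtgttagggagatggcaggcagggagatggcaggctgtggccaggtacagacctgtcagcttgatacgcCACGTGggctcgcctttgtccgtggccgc
Rrm2: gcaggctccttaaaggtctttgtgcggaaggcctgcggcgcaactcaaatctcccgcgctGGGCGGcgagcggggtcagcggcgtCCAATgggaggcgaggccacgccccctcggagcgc
Gart: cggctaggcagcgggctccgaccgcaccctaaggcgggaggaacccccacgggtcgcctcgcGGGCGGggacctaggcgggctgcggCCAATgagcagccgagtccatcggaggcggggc
Mthfd2: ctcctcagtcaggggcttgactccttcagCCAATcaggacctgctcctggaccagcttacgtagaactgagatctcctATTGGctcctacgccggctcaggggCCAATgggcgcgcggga
Shmt2: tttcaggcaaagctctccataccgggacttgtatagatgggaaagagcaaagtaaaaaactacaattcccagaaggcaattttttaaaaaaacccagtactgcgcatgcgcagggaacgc
Adss: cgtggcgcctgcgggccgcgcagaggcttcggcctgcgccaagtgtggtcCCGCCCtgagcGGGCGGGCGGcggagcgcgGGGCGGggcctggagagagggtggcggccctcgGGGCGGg
Aprt: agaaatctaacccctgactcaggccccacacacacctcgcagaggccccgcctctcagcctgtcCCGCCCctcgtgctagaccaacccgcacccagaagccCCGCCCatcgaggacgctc
These lie at chr5:30073626-30073745 (minus strand), chr11:93968026-93968145 (minus strand), chr12:24708119-24708238 (plus strand), chr16:91646973-91647092 (minus strand), chr6:83317610-83317729 (minus strand), chr10:127522445-127522564 (minus strand), chr1:177796515-177796634 (minus strand) and chr8:122576913-122577032 (minus strand). The starts of Nme1 and Mthfd2 used here lie inside longer gene models of the GENCODE M21 annotation.

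The E-box, the site of MYC and related proteins, was present in the promoters of 5 of the 35 members, namely Atic, Impdh2, Nme1, Paics and Tyms. That was 14.3% of the members beside 6.02% of 32851 promoters of the table. A member counted if any of its start sites had the motif, whereas each promoter of the table counted separately. The table was also not limited to tested genes, so these shares and those below are not in like units. CCAAT was found in 14 members, or 40.0%, beside 33.9% of all promoters. GC boxes were in 28 members, or 80%, beside 32.7% of all promoters, and they were present in 17 of the 23 members called higher and in 11 of the 12 others. The E2F letters searched (TTTCGCGC, TTTGGCGC, TTTCCCGC and TTTGGCGG) occurred in 1 member, Ppat, and the amino acid response element (TGATGCAA, TGATGAAA and TGATGTAA) in 1, Prps1. Each was 2.86% of the members, beside 1.96% of all promoters for E2F and 2.63% for the amino acid response element. These matches describe letters in the window and say nothing on whether a factor binds there.

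PRPP, the activated ribose used in de novo synthesis and base salvage, is made by Prps1 and Prps2. Prps2 (ENSMUSG00000025742; GRCm38 chrX:167346322-167382749, minus strand) gave 10.2, 11.3, 12.2 and 8.58 CPM in WT replicates 1 to 4, and 19.8, 16.8, 25.9 and 14.4 CPM in the Rank-knockout replicates. The groups were fully separate. Its log2 fold change was 0.83 (SE 0.24; adjusted p = 0.0163), but leaving out WT replicate 4 (0.72) or Rank-knockout replicate 3 (0.67) ended the call. Prps1 overlapped between the genotypes, at 48.2 ± 13.2 CPM for WT and 57.9 ± 13.4 CPM for Rank-knockout, with a log2 fold change of 0.24 (SE 0.21; adjusted p = 0.411).

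Of the 6 enzymes that build the purine ring, 4 rose, with a median log2 fold change of 0.91 over the step. Atic (ENSMUSG00000026192; GRCm38 chr1:71557150-71579631, plus strand), which closes the ring by the last 2 reactions to IMP, had 76.1, 80.9, 75.2 and 52.2 CPM in the WT libraries and 222, 164, 188 and 137 CPM in the Rank-knockout libraries. Its lowest Rank-knockout library stood well above its highest WT library, and the log2 fold change of 1.31 (SE 0.18; adjusted p = 0.0002) had the smallest p of all members. Gart (ENSMUSG00000022962; GRCm38 chr16:91621186-91646952, minus strand), a protein that carries 3 activities of the early ring, was at 23.8, 27.9, 27.1 and 21.8 CPM in WT and at 91.8, 45.4, 59.3 and 42.1 CPM in Rank-knockout. Here Rank-knockout replicate 1 stood far above its group, and the groups were again separate (log2 fold change 1.24, SE 0.24; adjusted p = 0.00161). Without that library the Gart value was 0.94 and still called.

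Adsl, which acts in the ring and again in the branch to AMP, went from 12.3 ± 4.60 to 24.2 ± 4.37 CPM, with overlap of 1 pair of libraries (0.88, SE 0.25; adjusted p = 0.0151). Pfas, the amidotransferase in the middle of the route, went from 7.54 ± 2.53 to 14.1 ± 3.11 CPM without overlap (0.86, SE 0.28; adjusted p = 0.0282). Both calls were lost when some single libraries were left out, with log2 fold changes down to 0.72 for Adsl and 0.67 for Pfas, both without WT replicate 3. Ppat, the committed first enzyme, was not called: it had 8.15, 5.03, 5.42 and 1.32 CPM in WT and 11.6, 7.07, 12.5 and 7.32 CPM in Rank-knockout (0.94, SE 0.37; adjusted p = 0.065). Only WT replicate 1 reached into the Rank-knockout range, and the low value of WT replicate 4 rests on 2 counts. Paics, whose gene starts head to head with Ppat on chromosome 5, was at 7.22 ± 3.09 and 11.1 ± 2.77 CPM, with a log2 fold change of 0.72 (SE 0.33; adjusted p = 0.105).

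Beyond IMP, 2 of the 4 genes grouped under the AMP and GMP branches were tested, of which Gmps rose and Adss was not called. Adsl, counted above with the ring, also acts toward AMP. Gmps, which makes GMP, had 6.12, 4.27, 4.74 and 5.28 CPM in WT and 9.90, 10.4, 12.9 and 7.84 CPM in Rank-knockout. All Rank-knockout libraries were above all WT libraries (1.02, SE 0.29; adjusted p = 0.014), and the call was lost only in the thinned data (0.90; adjusted p = 0.0587). Adss (ENSMUSG00000015961; GRCm38 chr1:177762962-177796511, minus strand), which commits IMP to AMP, was the lowest of the 34: 96.5, 75.2, 117 and 124 CPM in WT against 68.0, 79.3, 82.1 and 82.6 CPM in Rank-knockout. WT replicate 2 lay within the Rank-knockout range, and the log2 fold change of -0.40 (SE 0.17; adjusted p = 0.0828) was not called. Without that library it was -0.54 and called (adjusted p = 0.0127).

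The genes of IMP dehydrogenase, the enzyme that commits IMP to GMP, had too few counts to enter the edgeR fit. Impdh1 had a total of 24 counts in WT and 57 in Rank-knockout, or 2.24 ± 1.39 and 3.95 ± 1.17 CPM. Impdh2 had 5 and 33 counts, with 0 in WT replicates 1 and 3, and 52.5% of the 50-base words in the last 300 exonic bases of its transcripts also occur in the pseudogene Impdh2-ps. Its level is therefore uncertain. One count was worth 0.211 to 0.680 CPM in these libraries.

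The pyrimidine route had 3 called of 5, with a median of 0.91. Umps (ENSMUSG00000022814; GRCm38 chr16:33954782-33967038, minus strand), which attaches the ring to PRPP and yields UMP, had 11.6, 15.8, 9.48 and 5.94 CPM in WT and 25.3, 20.1, 22.7 and 17.3 CPM in Rank-knockout, without overlap (0.91, SE 0.26; adjusted p = 0.0149). Cad, the protein that carries the first 3 activities, had 12.2, 12.3, 7.45 and 10.6 CPM in WT and 33.5, 14.1, 20.1 and 13.6 CPM in Rank-knockout. The groups were separate but by a small gap, and Rank-knockout replicate 1 was by far the highest. The log2 fold change of 0.92 (SE 0.30; adjusted p = 0.0314) became 0.54 without it (adjusted p = 0.155). Without WT replicate 4 or without Rank-knockout replicate 1, 0 of the pyrimidine enzymes were called, with medians of 0.70 and 0.68.

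CTP synthase has a pair of genes here, of which Ctps was called and Ctps2 was not. Ctps was at 14.3, 18.1, 16.9 and 6.60 CPM in WT and at 39.8, 26.1, 35.7 and 16.5 CPM in Rank-knockout (1.03, SE 0.31; adjusted p = 0.0206). Rank-knockout replicate 4 fell within the WT range. Ctps2 was measured at 3.89 ± 1.06 against 4.48 ± 0.871 CPM (0.16, SE 0.35; adjusted p = 0.76). Dhodh, the mitochondrial step of the route, was at 12.3 ± 3.88 and 18.4 ± 4.52 CPM and was not called (0.57, SE 0.26; adjusted p = 0.112).

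All 5 enzymes grouped under deoxynucleotide supply rose, with a median log2 fold change of 1.15. Dctpp1 among them breaks dCTP down rather than making it. Rrm2 (ENSMUSG00000020649; GRCm38 chr12:24708241-24714146, plus strand), the small subunit of ribonucleotide reductase, which turns ribonucleotides into deoxyribonucleotides, had 8.83, 12.6, 14.2 and 5.94 CPM in WT and 38, 23.1, 30.8 and 19.1 CPM in Rank-knockout. Every Rank-knockout library was above every WT library, and the log2 fold change of 1.38 (SE 0.28; adjusted p = 0.00209) was the largest of the members. The last exons of Rrm2 share 10.6% of their 50-base words with annotated pseudogenes. The large subunit Rrm1 had 38.7, 36.7, 24.4 and 23.1 CPM in WT and 70.3, 53.6, 65.6 and 39.7 CPM in Rank-knockout (0.88, SE 0.22; adjusted p = 0.00698). Its groups were separate by about 1 CPM.

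Thymidylate comes from dUMP. Dut (ENSMUSG00000027203; GRCm38 chr2:125247190-125258608, plus strand), which makes dUMP from dUTP and keeps uracil out of DNA, was at 31.3, 31.9, 43.4 and 22.5 CPM in WT and at 97.5, 66.3, 88.8 and 61.2 CPM in Rank-knockout. The gap between the groups was wide (1.28, SE 0.21; adjusted p = 0.000557). Tyms, thymidylate synthase, which takes its methyl group from folate, was at 25.1, 12.1, 21 and 14.5 CPM in WT and at 55.0, 30.5, 43.3 and 26.7 CPM in Rank-knockout (1.15, SE 0.28; adjusted p = 0.00605). Its groups were separate by a narrow margin. Dctpp1, a dCTP pyrophosphatase, went from 62.5 ± 17.5 to 103 ± 22.2 CPM with overlap (0.69, SE 0.20; adjusted p = 0.0187), and lost the call without each of 5 libraries, with values down to 0.52 without WT replicate 4.

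The nucleoside diphosphate kinases hand the last phosphate to nucleotides of every base. Nme1 (ENSMUSG00000037601; GRCm38 chr11:93956979-93968521, minus strand) had 105, 136, 114 and 77.3 CPM in WT and 235, 203, 220.3 and 166 CPM in Rank-knockout. The groups did not overlap (0.92, SE 0.17; adjusted p = 0.00127). Nme2 was listed at 2 counts in all of WT and 6 in all of Rank-knockout and was not tested. On the same strand, 98.3% of the last 300 exonic bases of its transcripts are covered by exons of Gm20390, a gene model that spans both kinases and holds 0 counts in all 8 libraries, and 39.4% of those of Nme1 are. How reads in such shared exons were assigned is not given in the sources used here, so the level of Nme2 is uncertain, and in part that of Nme1.

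Salvage gave a mixed count. Of 6 enzymes, 3 rose, and the median log2 fold change was 0.64. Uck2 (ENSMUSG00000026558; GRCm38 chr1:167222883-167285320, minus strand), which phosphorylates uridine and cytidine, had 31.3, 43.2, 37.3 and 30.4 CPM in WT and 96.0, 64.0, 81.6 and 49.7 CPM in Rank-knockout, with no overlap (1.01, SE 0.21; adjusted p = 0.0022). Tk1, the thymidine kinase of dividing cells, had 8.15, 14.1, 6.77 and 5.94 CPM in WT and 19, 17.9, 26.8 and 12.8 CPM in Rank-knockout. Rank-knockout replicate 4 was below WT replicate 2 (0.99, SE 0.30; adjusted p = 0.0193), and leaving out WT replicate 1, 3 or 4, or else Rank-knockout replicate 3, ended the call, at values of 0.81 to 0.91. Mtap, which recovers adenine and the methionine skeleton from a polyamine by-product, had 7.47, 12.3, 5.42 and 6.60 CPM in WT and 22.5, 16.8, 18.7 and 11.2 CPM in Rank-knockout (1.01, SE 0.29; adjusted p = 0.0157). Its groups overlapped by 1 pair of libraries.

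The other salvage enzymes, Hprt, Aprt and Dck, did not pass the test. Hprt, which returns hypoxanthine and guanine to IMP and GMP, was at 34.7, 26.9, 28.5 and 30.4 CPM in WT and at 35.8, 39.1, 42.8 and 30.1 CPM in Rank-knockout (0.30, SE 0.18; adjusted p = 0.218). Aprt, its counterpart for adenine, was at 141, 174, 197 and 170.4 CPM in WT and at 112, 141, 155 and 149.8 CPM in Rank-knockout (-0.30, SE 0.15; adjusted p = 0.144). Both genes overlapped between genotypes. Dck, deoxycytidine kinase, was at 8.55 ± 3.87 and 7.28 ± 2.37 CPM, and its log2 fold change of -0.08 (SE 0.37; adjusted p = 0.896) was 0.12 with library totals and 0.05 without the 50 most abundant genes in the library size.

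The folate enzymes rose together, 5 of 5, with a median of 0.97. They form a cytosolic and a mitochondrial arm. In the cytosol Shmt1 (ENSMUSG00000020534; GRCm38 chr11:60788104-60811718, minus strand), which splits serine into glycine and a one-carbon unit, had 81.5, 123, 86.7 and 59.4 CPM in WT and 241, 143, 213 and 127 CPM in Rank-knockout. The lowest Rank-knockout library stood just above the highest WT library (1.03, SE 0.24; adjusted p = 0.00601). Mthfd1, the cytosolic enzyme with 3 activities that interconverts folate forms, had 25.1, 13.8, 19 and 16.5 CPM in WT and 50.8, 26.4, 33.9 and 30.1 CPM in Rank-knockout (0.97, SE 0.25; adjusted p = 0.00769), with groups that almost touched.

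In the mitochondria, Shmt2 had 21.1, 16.1, 15.6 and 9.90 CPM in WT and 47.8, 32.4, 26.8 and 26.7 CPM in Rank-knockout, clear of each other (1.10, SE 0.25; adjusted p = 0.00414). Mthfd2, the dehydrogenase of that arm, had 29.2, 37, 34.6 and 27.1 CPM in WT and 73.1, 58.8, 63.8 and 45.5 CPM in Rank-knockout (0.90, SE 0.18; adjusted p = 0.00218), also without overlap. Mthfd1l, which releases formate toward the cytosol, went from 20.8 ± 6.71 to 37.4 ± 9.81 CPM with overlap (0.80, SE 0.25; adjusted p = 0.0222). It lost the call without each of 5 libraries, with a lowest value of 0.63 without WT replicate 4.

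The methionine cycle carries one-carbon units on to methylation. Mat2a, which makes S-adenosylmethionine, was at 122, 159, 98.2 and 116 CPM in WT and at 188, 183, 193 and 141 CPM in Rank-knockout (0.50, SE 0.16; adjusted p = 0.0293). The WT library of replicate 2 lay above Rank-knockout replicate 4, and 6 of the 8 left-out libraries each ended the call, with values of 0.38 to 0.48. Ahcy, which clears the by-product of methylation, was at 18.7 ± 2.53 and 26.6 ± 4.57 CPM and was not called (0.50, SE 0.20; adjusted p = 0.0671). Its last exons share 27.2% of their 50-base words with annotated pseudogenes.

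Enzymes that stand in for each other, or on opposite sides of a choice, were compared as count ratios within each library, which no scaling can move. In 9 pairs with at least 20 counts of each gene over the 8 libraries together, 0 differed between genotypes by an exact two-sided permutation test over the 70 assignments of the libraries, where the smallest unadjusted p the design allows is 0.0286. A single pair at that smallest p could not pass after adjustment over the 9 pairs, so the adjusted values say little on whether a pair differed. Ctps to Ctps2 came nearest. Its log2 ratio was 1.52, 1.89, 2.21 and 1.22 in WT and 2.78, 2.62, 2.94 and 2.13 in Rank-knockout, where a single Rank-knockout library lay within the WT range (difference 0.91; exact permutation p = 0.0571, adjusted p = 0.309). The ratio of Impdh2 to Impdh1, although among the 9, gives no reliable value: Impdh2 had 0 counts in WT replicates 1 and 3, and the difference of 0.97 became 2.0 with 0.1 rather than 0.5 added to the counts. Ppat to Hprt, the first step of de novo purine synthesis over purine salvage, had a difference of 0.78 (exact permutation p = 0.171) that was 0.29 without WT replicate 4.

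For the mitochondrial over the cytosolic folate enzymes the genotypes were close. Shmt2 to Shmt1 differed by 0.04 and Mthfd1l to Mthfd1 by -0.05 on the log2 scale, and Tk1 to Tyms, salvage over synthesis of thymidylate, by 0.04, each with an exact permutation p of at least 0.886. These directions turned when single libraries were left out. Rrm2 to Rrm1 had a difference of 0.52 (exact permutation p = 0.143), Prps1 to Prps2 of -0.54 (exact permutation p = 0.171) and Paics to Ppat of -0.41 (exact permutation p = 0.8), the last resting on WT replicate 4, without which it was 0.19.

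**Figure D3:**
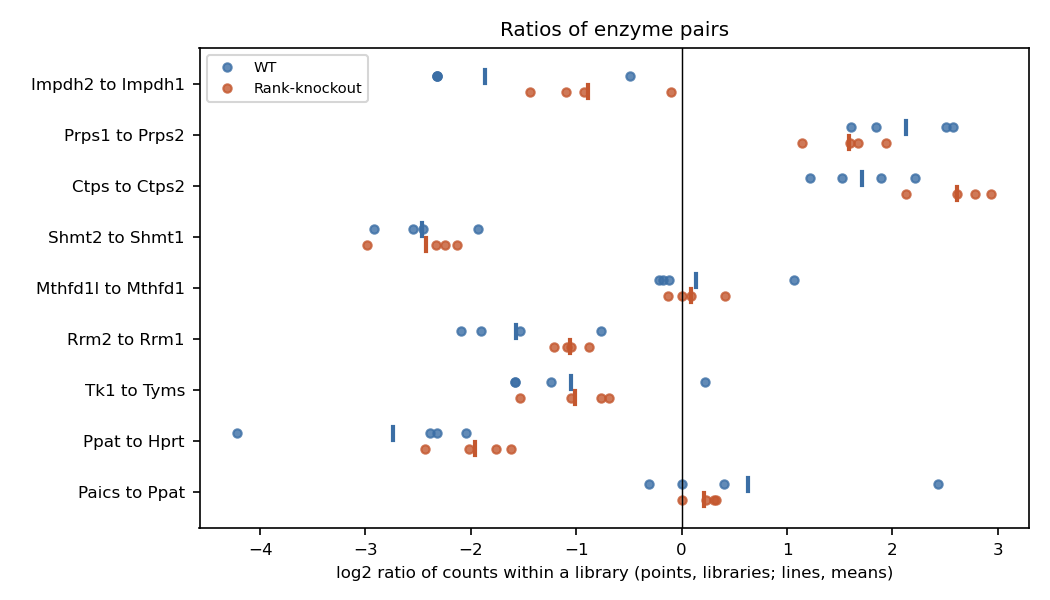
Log2 ratio of counts within each library for the 9 tested pairs, with WT in blue and Rank-knockout in red (points, libraries; lines, means). The Ctps to Ctps2 ratios are nearly separate, those of Shmt2 to Shmt1, Mthfd1l to Mthfd1 and Tk1 to Tyms lie over each other, and 1 WT library stands apart in both pairs that hold Ppat.

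Of 93 further genes of nucleotide and one-carbon metabolism in 6 lists, 65 were tested, 13 rose and 13 fell, with a median log2 fold change of 0.09. Taken over the 6 lists, these shares lie near those of all tested genes, 15.8% higher and 14.6% lower. The even balance depended on the scaling, since with library totals 22 rose and 8 fell, with a median of 0.29. All tested genes shifted likewise under library totals: 26% of the 9855 rose, 859 fell, and their median was 0.22. The list of nucleotide breakdown and pool cleaning, set against the members, had 8 of 23 tested genes lower and 4 higher, with a median of -0.33. Under library totals it had 6 lower and 7 higher, with a median of -0.13. Upb1, the last enzyme of pyrimidine breakdown, had 111, 115, 98.2 and 111 CPM in WT and 46.8, 54.3, 46.4 and 53.9 CPM in Rank-knockout (-1.12, SE 0.14; adjusted p = 0.000149), far below WT in every library. Cda, which deaminates cytidine, was lower in every Rank-knockout library than in any WT library (-0.88, SE 0.15; adjusted p = 0.000731), and Gda, guanine deaminase, fell by 0.95 on the log2 scale (adjusted p = 0.00081). The other 5 that fell, named here after their values were seen, were Ada, Xdh, Nt5e, Dpyd and Tymp, with log2 fold changes of -1.40, -0.64, -1.66, -0.91 and -1.11.

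The 4 genes of that list that rose, a share near the 15.8% of all tested genes, were Dctd, Itpa, Nt5c3 and Nt5c3b. Dctd, which feeds dUMP to thymidylate synthase, had 2.04, 1.51, 1.35 and 1.98 CPM in WT and 8.63, 5.96, 7.58 and 6.28 CPM in Rank-knockout. Its groups were wide apart (2.07, SE 0.37; adjusted p = 0.000994), but its WT values rest on 3, 6, 2 and 3 counts. Itpa, which removes inosine triphosphate, rose by 0.67, and the nucleotidases Nt5c3 and Nt5c3b by 0.63 and 0.81. Of other genes of the list with like roles, the nucleotidase Nt5e fell, as given above, and 4 were not called. Their log2 fold changes were 0.41 for Nt5c and -0.11 for Nt5c2, both nucleotidases, and 0.33 for Nudt1 and -0.33 for Samhd1, both pool-cleaning enzymes. Among kinases and further salvage genes, Dtymk, the next kinase after thymidylate synthase and Tk1, had 10.2, 7.54, 10.2 and 7.92 CPM in WT and 28.6, 20.8, 25.9 and 24.6 CPM in Rank-knockout (1.52, SE 0.22; adjusted p = 0.000287). Nme6 rose by 1.05 there, Cmpk2 fell by 0.87 on the log2 scale, and 11 of the 14 tested genes were not called. With library totals 4 of the 14 rose and 0 fell by edgeR, so the call of Cmpk2 depended on the scaling.

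Of 9 tested folate carriers and further folate enzymes 3 rose and 3 fell, and of 5 nucleoside transporters 1 rose and 1 fell. With library totals the folate list had 3 higher and 1 lower. Slc46a1, the proton-coupled folate transporter of the gut, had 308, 330.1, 265 and 249 CPM in WT and 127, 119, 111 and 90.5 CPM in Rank-knockout (-1.37, SE 0.15; adjusted p = 9.88e-05). Every Rank-knockout library was far below the lowest WT library. The reduced folate carrier Slc19a1 also fell, by 0.41 on the log2 scale (adjusted p = 0.0495), and Slc25a32, the mitochondrial folate carrier, rose by 0.56 (adjusted p = 0.019). Slc28a1, a concentrative nucleoside carrier, had a log2 fold change of -1.6, and Slc29a1, an equilibrative one, rose by 1.08. Among the further folate enzymes Fpgs, which adds the glutamate tail that holds folate in the cell, rose by 1.23, and Mtr, methionine synthase, by 0.89. Aldh1l1, which burns one-carbon units to carbon dioxide, fell by 0.69 on the log2 scale. In serine and glycine supply 1 of 4 tested genes rose, Slc1a5 (0.82), and in methionine, transsulfuration and polyamine metabolism 2 of 10 rose, Srm (1.16) and Enoph1 (0.87). Beside the 15.8% of all tested genes that rose, counts this small do not set these lists apart. With library totals they were 3 of 4 and 4 of 10, where 26% of all tested genes rose.

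**Figure D4:**
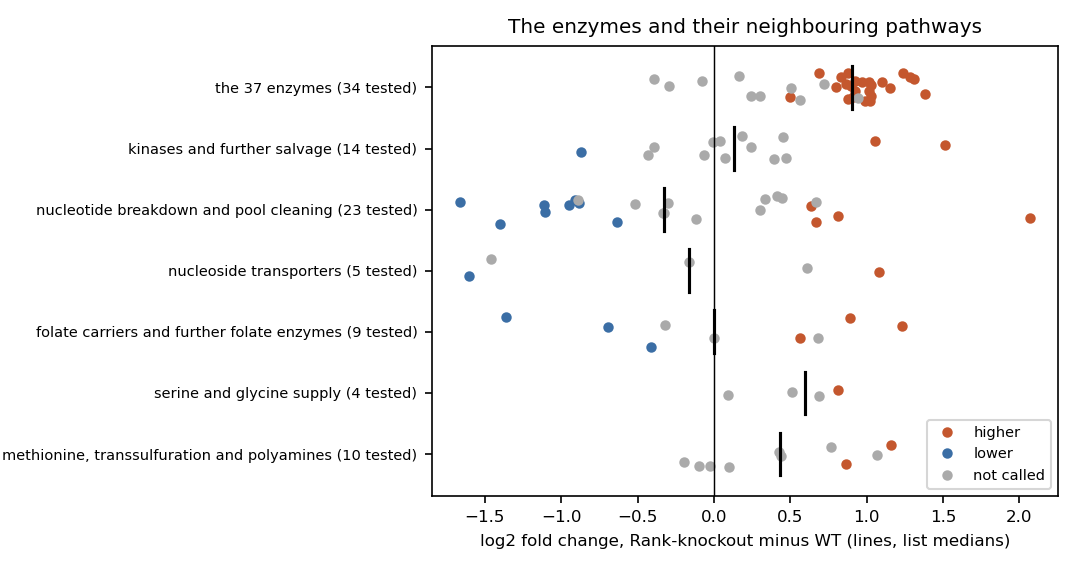
Log2 fold change of each tested gene (points) in the 37 enzymes and the 6 neighbouring lists, red where higher, blue where lower and grey where not called, with list medians as black lines. The enzymes lie mostly to the right of 0 with a median of 0.91, and the breakdown list is centred at -0.33.

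Markers of dividing cells moved with the enzymes. All 14 tested of 15 cycling-cell markers rose, with a median log2 fold change of 1.21, and their sum was 464 to 721 CPM in WT libraries and 1041 to 1761 CPM in Rank-knockout libraries. Of 12 villus enterocyte markers, 10 fell and 0 rose, and their sum went from a range of 23268 to 32792 CPM to one of 10729 to 15053 CPM. With library totals 8 fell, and likewise 8 without WT replicate 4 or without Rank-knockout replicate 1. Crypt base stem cell markers had 2 of 5 higher, or 4 with library totals (sum 269 to 397 CPM in WT, 386 to 933 CPM in Rank-knockout) and Paneth cell markers 3 of 4 (1408 to 2879 and 1887 to 5887 CPM), of which 1 was called without WT replicate 4 and 2 without Rank-knockout replicate 1. Goblet cell markers had 1 higher and 4 lower of 6 (12811 to 17069 and 6916 to 9572 CPM), or 1 higher and 2 lower with library totals. There were 0 called of 6 enteroendocrine (495 to 580.4 and 396 to 675 CPM) and 2 tested tuft cell markers (20.3 to 25.1 and 14.1 to 24.6 CPM). Under library totals 26% of all 9855 tested genes rose and 859 fell, and of the enteroendocrine markers 1 rose. The part of these cell types in the rise of the enzymes was not tested, and in bulk samples a change in the number of cells of a type and a change in RNA per cell cannot be told apart.

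The summed level of the enzymes over that of the cycling-cell markers was 1.78, 1.88, 1.88 and 2.23 in WT and 1.29, 1.30, 1.5 and 1.46 in Rank-knockout. The ratio was lower in every Rank-knockout library than in any WT library, since the summed markers differed by 2.25 times and the summed enzymes by 1.61 times. Both sums lean on a few abundant genes: Top2a gave 269 CPM of the marker sum in WT and 586 CPM in Rank-knockout, and Aprt and Adss, which were not called, gave 171 and 103 CPM of the enzyme sum in WT and 139 and 78 CPM in Rank-knockout. The medians over genes, 1.21 for the markers and 0.91 for the enzymes on the log2 scale, lay closer together than the sums. Over the breakdown list the sum went the other way, from 8094 ± 931 CPM to 4807 ± 695 CPM (WT, then Rank-knockout; SD, n = 4 for each). That sum rests mostly on Gda, with means of 4315 and 2232 CPM, and Xdh, with means of 2074 and 1334 CPM, and does not stand for the list, in which 4 genes rose.

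**Figure D5:**
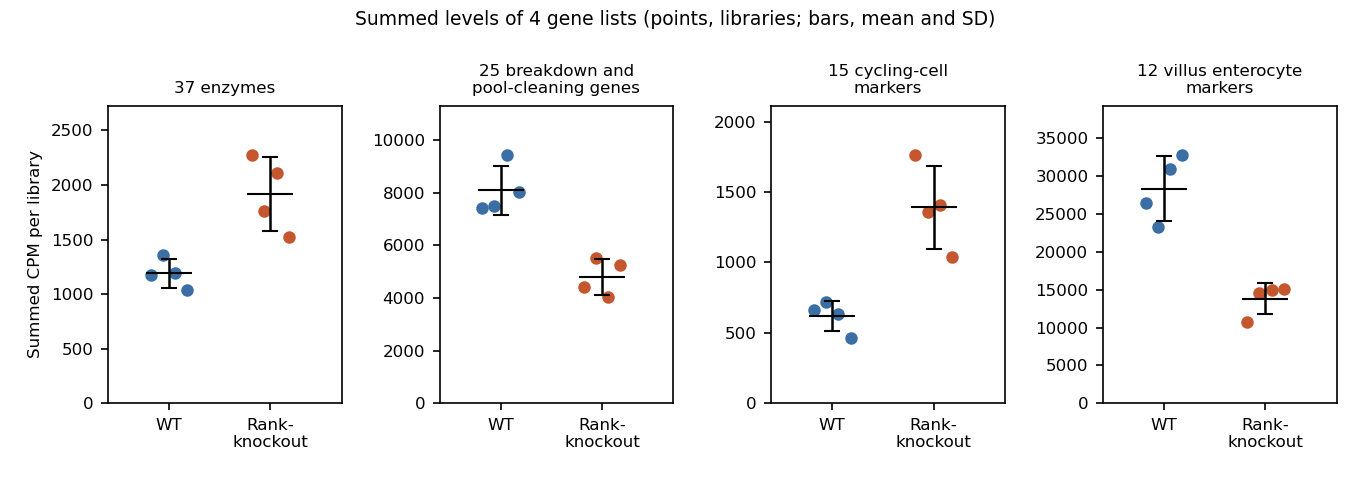
Summed CPM per library of the 37 enzymes, the breakdown and pool-cleaning genes, the cycling-cell markers and the villus enterocyte markers, in WT (blue) and Rank-knockout (red), with mean and SD. In each panel the genotypes do not overlap, with the enzymes and cycling-cell markers higher and the other lists lower in Rank-knockout.

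Of the epithelial cell markers, 9 of 9 were detected, summing to 12813 to 14068 CPM in WT and 9965 to 12819 CPM in Rank-knockout. Of these 9, 3 were lower, Epcam (-0.45), Krt20 (-0.96) and Vil1 (-0.80), and 2 were higher, Krt18 (0.41) and Krt19 (0.65). T cell and intraepithelial lymphocyte markers summed to 234 to 358 CPM in WT and 161 to 267 CPM in Rank-knockout, with 0 of 7 tested called. Lists of B and plasma cells, myeloid cells, stroma, endothelium and smooth muscle summed to at most 14.9 CPM in any library, and Cd79a, Adgre1, Cdh5 and Tagln were at 0 in all. Tnfrsf11a itself had overlapping levels of 60.2 ± 17.5 and 37.7 ± 8.57 CPM (log2 fold change -0.67, SE 0.22; adjusted p = 0.0322). Tags from its 3′ end need not lie in the deleted part, so this value does not check the genotype.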

How the data were processed

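RNA of intestinal epithelial cells was made into QuantSeq 3′ mRNA-seq libraries. As the study's methods describe, the authors used BBDuk to trim reads, removed ribosomal, mitochondrial, phiX and adapter reads with bowtie2, aligned the rest to GRCm38 (mm10) with STAR and counted sense-strand reads per gene with featureCounts. The deposited values are raw counts, and no molecular identifiers are mentioned, so PCR copies are counted. The authors tested by genotype with DESeq2.

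Symbols and positions came from GENCODE M21 (54495 of 54532 identifiers found). Counts were tested in edgeR 4.0.16 (R 4.3.3) with the robust quasi-likelihood F-test after filterByExpr and TMM scaling, genotype alone, with Benjamini-Hochberg adjustment over 9855 genes and a threshold of 0.05. Fold changes are Rank-knockout minus WT, and the SE comes from the F statistic. Ratios of pairs had 0.5 added to each count. Alternatives were DESeq2 1.42.0, voom (limma 3.58.1), RLE, raw totals, totals without the 50 most abundant genes, all expressed genes, genes with a mean of 5 CPM or more, thinning to the shallowest library, a replicate block and each library left out.

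All members are named. Of the other lists, the text names up to 4 called genes with the smallest p, those called against a list's main direction, and genes needed beside a member. Members and lists were chosen with earlier results of these data known.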

Additional observations from a re-analysis of the deposited data

How the results depend on the processing

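The median log2 fold change of the tested members stayed between 0.77 and 1.11 in the 17 alternatives, and 22 to 29 members were higher when no library was left out. With a library left out, 13 to 27 members were higher and 0 to 1 were lower (Adss, without WT replicate 2), and in the thinned data 1 was lower. Dck had a log2 fold change of 0.12 with library totals, 0.050 without the 50 most abundant genes and 0.15 with limma-voom, and -0.42 to 0.15 with a library left out. The differences of pair ratios with a library left out ran from -0.14 to 0.46 for Tk1 to Tyms, -0.11 to 0.22 for Shmt2 to Shmt1, -0.17 to 0.26 for Mthfd1l to Mthfd1 and -0.73 to 0.19 for Paics to Ppat. The cause was not tested. Library totals gave 2566 genes of the series higher and 859 lower, against 1555 and 1438. Replicate numbers are shared by the genotypes, but the labels do not state whether they pair the libraries. Deviations of like-numbered libraries had correlations of 0.0518, 0.154, -0.142 and 0.329, too few values to settle it. A replicate block gave 1708 genes of the series higher and 1602 lower. With the replicate block 25 members were higher, Ppat being the one gained (adjusted p = 0.0426, edgeR). Members below about 5 CPM rest on few counts in the shallow WT libraries, where 1 count is up to 0.680 CPM, and counting intervals would cover counting error only.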
